A study of Mus musculus with 7 samples.

Results

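Genes that organise lymphoid tissue were examined in whole-lung RNA sequencing of C57BL/6 mice with a knockout of Scgb3a2, a secreted protein of airway club cells, and of wild type C57BL/6 mice. The 9 genes, taken by symbol from the 28828 entries of the count table, were the chemokines Cxcl13, Ccl19 and Ccl21a, the receptors Cxcr5 and Ccr7, the lymphotoxins Lta and Ltb, the venule mucin Glycam1 and the transcription factor Bcl6. There were 3 knockout libraries (KO3, KO4 and KO5) and 4 wild type libraries (WT2, WT3, WT4 and WT6), called here by genotype and title number. Sex, age, housing, batch and the design of the allele are not in the labels. Nor is it stated that every library is a separate animal, and the p-values therefore reflect only how the libraries vary, which may be technical. Totals were 13071262 to 15987368 counts in knockout and 13600557 to 16480006 counts in wild type libraries.

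In lymphoid tissue, stromal cells secrete CXCL13, which draws B cells and follicular helper T cells through CXCR5, and CCL19 and CCL21, which draw T cells and dendritic cells through CCR7. Lymphotoxin, made by lymphocytes and lymphoid tissue inducer cells, acts on the lymphotoxin beta receptor of stromal cells and, through the non-canonical NF-kB pathway, maintains these chemokines. High endothelial venules, which make mucins such as GLYCAM1, admit lymphocytes from blood, and BCL6 directs germinal centre B cells and follicular helper T cells. The lung of mice can form such tissue along its bronchi after infection or inflammation.

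Of the members tested, the B cell follicle chemokine Cxcl13 had the largest log2 fold change. The others, with the T zone chemokines Ccl19 and Ccl21a among them, overlapped between genotypes. The fitted level of Cxcl13 was 4.79-fold that of wild type in knockout lung, with every knockout library above every wild type library, and Glycam1 was counted 87 times in knockout and 2 times in wild type lung. Ltb, Cxcr5, Ccr7, Lta and Ccl19 had higher means in knockout lung but overlapped between genotypes, while Bcl6 and Ccl21a had log2 fold changes of -0.01 and -0.06. With p-values adjusted over all 19832 genes tested, none of the 7 members tested passed the threshold of 0.05 in edgeR's quasi-likelihood test, which called 7 genes (0.0353%). An unadjusted p under 0.05 was found for 3 of the 7 members, Cxcl13, Ltb and Ccl19, against 2.87% of all genes. The members were chosen with earlier results of these data known. These 3 also rose and fell together over the libraries, so that their number is a description only. DESeq2 called 1 of the 7 members, Cxcl13, and 47 of the 19832 genes tested. Lta and Glycam1 had too few counts for the filter and were not tested.

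Sequence upstream of the start site is shown for Cxcl13 and Ltb, the members with the smallest p, and for Glycam1, the member with the largest ratio of counts. The sequences are from RefSeq (GRCm38.p6), 5′ to 3′ on the strand of each gene, ending before the first annotated transcript start. Capitals mark matches on either strand to an NF-kB-like pattern (3 G, then any 5 bases, then 2 C) and to the TATA box TATAAA. The Cxcl13 window is chr5:95956689-95956938 (plus strand), the Ltb window chr17:35194257-35194438 (plus strand) and the Glycam1 window chr15:103565082-103565331 (minus strand).
Cxcl13: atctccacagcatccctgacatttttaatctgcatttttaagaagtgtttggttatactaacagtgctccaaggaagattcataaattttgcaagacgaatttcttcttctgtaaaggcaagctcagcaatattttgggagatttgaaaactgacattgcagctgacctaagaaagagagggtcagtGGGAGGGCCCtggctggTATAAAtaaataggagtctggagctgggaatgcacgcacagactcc
Ltb: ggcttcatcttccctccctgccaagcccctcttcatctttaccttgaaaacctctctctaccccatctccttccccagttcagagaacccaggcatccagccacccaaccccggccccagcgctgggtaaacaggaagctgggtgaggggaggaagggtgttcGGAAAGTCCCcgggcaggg
Glycam1: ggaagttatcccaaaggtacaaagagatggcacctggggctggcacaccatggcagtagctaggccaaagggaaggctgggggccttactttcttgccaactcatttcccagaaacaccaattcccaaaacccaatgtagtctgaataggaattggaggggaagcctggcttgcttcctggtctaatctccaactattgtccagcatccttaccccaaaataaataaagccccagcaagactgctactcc

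The Cxcl13 window held 1 match to the NF-kB-like pattern, beginning 63 bases before the RefSeq start, and 1 TATA box, beginning 46 bases before it. The Ltb window, of 182 bases, held 1 NF-kB-like match, and the Glycam1 window held neither pattern. The NF-kB-like pattern occurred in 45.8% of 32841 mouse promoter windows of 250 bases and in 33.7% of windows of 182 bases, and TATAAA in 12.4% of those of 250 bases. They are matches of letters and were not tested for binding. Promoter entries were found for 7 of the 9 members. Bcl6, at a log2 fold change of -0.01, held 1 NF-kB-like match before its first start and 2 before a later start. Lta held 2 overlapping matches, Ccl19 held 1 in a window of 38 bases, and Ccl21a held none. The matches were thus not limited to the members shown.

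The labels held for the targeted gene: Scgb3a2 had 19, 19 and 37 counts in KO3, KO4 and KO5, against 4204, 4170, 2636 and 4165 counts in WT2, WT3, WT4 and WT6. Levels are given as CPM, the counts scaled to library size with the trimmed mean of M-values (TMM). The alveolar genes Sftpc and Ager were abundant in all libraries, with 5897 to 8559 and 1019 to 1695 CPM in knockout and 6836 to 8771 and 1180 to 1641 CPM in wild type lung. KO5 and WT6 differed from the others in mesothelial transcripts, whose summed level over 9 marker genes was 309.7 CPM in KO5 and 129 and 174 CPM in the other knockout libraries, against 323.9 CPM in WT6 and between 142 and 181 CPM in WT2, WT3 and WT4. The adipose sum reached 250.9 CPM in WT6, the highest of the 7 libraries, where the remaining wild types had 77.9 to 103 CPM. Between whole libraries, the chi-square per degree of freedom, smaller for more alike counts, was 9.22 for KO5 and WT6. It was 23.2 for KO5 and KO3 and 22.9 for KO5 and KO4. Values without both WT6 and KO5 are given where they differ most.

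Cxcl13 (chromosome 5, 95956951 to 95961068, plus strand, GRCm38) had 66, 226 and 255 counts in KO3, KO4 and KO5, against 35, 47, 26 and 47 counts in WT2, WT3, WT4 and WT6. This was 4.46, 14.4 and 18.5 CPM in knockout libraries, against 2.11, 3.001, 1.92 and 3.31 CPM in wild type libraries. All knockout libraries lay above all wild type libraries, KO4 and KO5 far above and KO3 close to WT6. The means were 12.4 ± 7.202 CPM in knockout (SD, n = 3) and 2.58 ± 0.67 CPM in wild type lung (SD, n = 4). The log2 fold change was 2.26 ± 0.43 (SE), rank 22 of all genes by p, and edgeR's adjusted p of 0.455 did not pass. Of all genes tested, 2.11% had every knockout library above every wild type library and 1.61% every knockout library below, and Cxcl13 was the 1 tested member of 7 with all knockout libraries above, and none of the 7 had them all below. Without KO3, Cxcl13 passed (2.66, edgeR adjusted p = 0.000579), as it did in DESeq2 (2.26, adjusted p = 1.16e-05), with a range over all alternatives of 1.16e-05 to 0.99997. Without both WT6 and KO5 the log2 fold change was 2.01. In whole tissue, more cells of a type and more RNA per cell cannot be told apart.

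Ccl19 and Ccl21a, the ligands of CCR7, lie 16.3 kb apart on chromosome 4, both on the minus strand (42754525 to 42756577 and 42772860 to 42773993). Ccl19 had 10.2, 16.2 and 16.8 CPM in KO3, KO4 and KO5, against 11.7, 10.6, 10.95 and 10.2 CPM in WT2, WT3, WT4 and WT6. KO4 and KO5 lay above all wild type libraries, and KO3 lay among them. The means were 14.4 ± 3.64 CPM in knockout (SD, n = 3) and 10.9 ± 0.63 CPM in wild type lung (SD, n = 4), and edgeR gave a log2 fold change of 0.40 ± 0.18 (SE, adjusted p = 0.9998). It was 0.26 without both WT6 and KO5. Ccl21a had 27.0, 25.8 and 29.5 CPM in knockout libraries, against 32.6, 22.03, 27.4 and 32.7 CPM in wild type libraries. The knockout values lay inside the wild type range, at means of 27.4 ± 1.88 CPM in knockout (SD, n = 3) and 28.7 ± 5.08 CPM in wild type lung (SD, n = 4). Its log2 fold change was -0.06 ± 0.15 (SE), with changes of sign in 3 of 15 alternatives. The genome holds near-identical copies of Ccl21a, such as Ccl21b and Ccl21c. Neither had an entry of its own among the counted genes. Reads from these copies could have been given to Ccl21a or discarded.

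**Figure D1:**
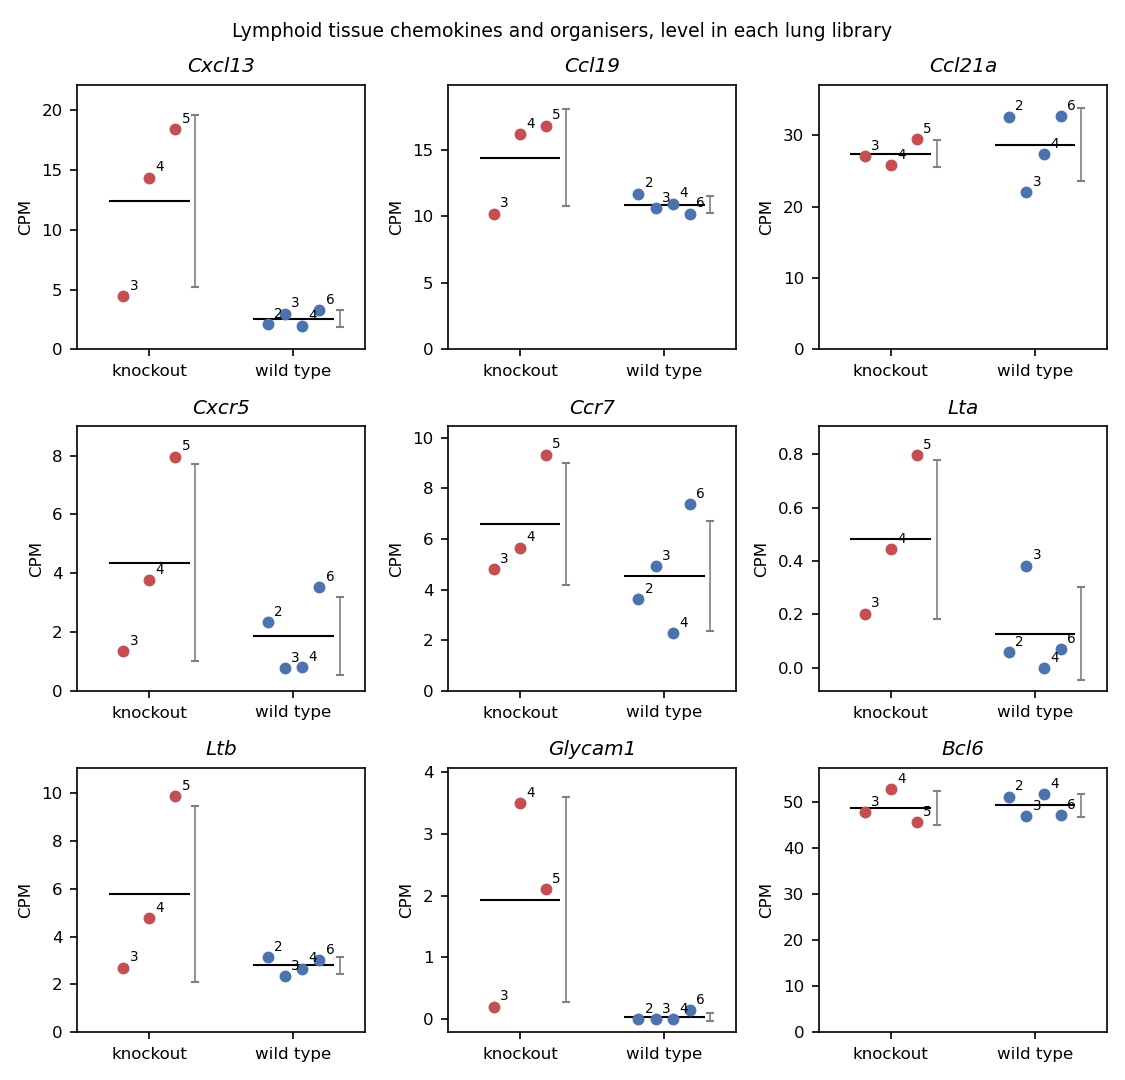
Level of each of the 9 genes in CPM (vertical axes, linear) in the 3 knockout and 4 wild type libraries, where points are libraries with their number, black lines are group means and grey bars are 1 SD. KO4 and KO5 stand above all wild type libraries for Cxcl13, Ccl19, Ltb, Cxcr5, Lta and Glycam1, while Ccl21a and Bcl6 overlap between genotypes and KO3 overlaps or is close to wild type in every panel.

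The receptors overlapped between genotypes. Cxcr5 (chromosome 9, 44511787 to 44561877, minus strand) had 1.35, 3.76 and 7.96 CPM in KO3, KO4 and KO5, against 2.35, 0.77, 0.81 and 3.52 CPM in WT2, WT3, WT4 and WT6. WT2 and WT6 exceeded KO3, and KO5 was the highest library. The log2 fold change was 1.21 ± 0.66 (SE, edgeR adjusted p = 0.9998), and it was 0.46 when KO5 was left out and 0.94 when WT6 was left out as well. Cxcr5 shares 110 of its 3332 exonic bases with Bcl9l on the opposite strand, which had 1103 to 2034 counts, so that its low counts of 11 to 110 are uncertain. Ccr7 (chromosome 11, 99144196 to 99155077, minus strand) had 4.80, 5.66 and 9.34 CPM in knockout libraries, against 3.62, 4.92, 2.29 and 7.38 CPM in wild type libraries. KO5 was again the highest library, but WT6 lay above KO3 and KO4. Its log2 fold change of 0.53 ± 0.36 (SE, edgeR adjusted p = 0.9998) was 0.21 without KO5 and 0.86 without WT6.

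Both lymphotoxin genes lie in 1 locus on chromosome 17, Ltb at 35194439 to 35196320 (plus strand) and Lta at 35203165 to 35205351 (minus strand), 6.84 kb apart. Ltb, the membrane-bound subunit, had 40, 75 and 136 counts in KO3, KO4 and KO5, against 52, 37, 36 and 43 counts in WT2, WT3, WT4 and WT6. In CPM these were 2.70, 4.77 and 9.85 in knockout libraries, against 3.13, 2.36, 2.66 and 3.02 in wild type libraries. KO4 and KO5 lay above all wild type libraries, and KO3 lay among them. The log2 fold change was 1.04 ± 0.36 (SE, edgeR adjusted p = 0.9998), 0.42 without KO5 and 0.46 when WT6 was also left out. Lta, the soluble subunit, had 3, 7 and 11 counts in knockout libraries, against 1, 6, 0 and 1 counts in wild type libraries. The sums of 21 counts in knockout and 8 counts in wild type libraries gave a ratio, on TMM-scaled library sizes, of 3.55 with a 95% exact counting interval of 1.51 to 9.28, which covers counting error only. WT3, with 6 of the 8 wild type counts, lay between KO3 and KO4, and without WT3 the ratio was 10.5 (2.57 to 92.4). Without KO5 it was 2.46, and its interval of 0.87 to 7.17 included 1. Their neighbour Tnf, encoding a cytokine of the same family, had 1.59 ± 0.20 CPM in knockout (SD, n = 3) and 1.14 ± 0.20 CPM in wild type lung (SD, n = 4). Its knockout libraries all lay above its wild type libraries, at a log2 fold change of 0.47 ± 0.29 (SE, edgeR adjusted p = 0.9998). KO3 had 21 counts and WT2 had 23 counts, so that the groups were apart only after scaling (1.42 against 1.39 CPM). Such an order was found for 2.11% of all genes tested.

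Glycam1 (chromosome 15, 103562759 to 103565081, minus strand) was close to the limit of detection in wild type lung. It had 3, 55 and 29 counts in KO3, KO4 and KO5, against 0, 0, 0 and 2 counts in WT2, WT3, WT4 and WT6. In the wild type libraries without a count, the 3 counts that a count of 0 allows correspond to 0.18 to 0.22 CPM, against 3.50 CPM in KO4 and 2.10 CPM in KO5. KO3, at 0.20 CPM, exceeded WT6 by 1 count, so that the groups did not overlap only by that count. The ratio of the summed counts, on TMM-scaled library sizes, was 58.9 with a 95% exact counting interval of 15.8 to 494, which covers counting error only. KO4 held 55 of the 87 knockout counts, and without KO4 the ratio was 33.6 (8.56 to 289). Without WT6, which held both wild type counts, the ratio was 29.9 when 3 counts were assumed for the wild type group. This value has no interval and leaves out counting error in knockout lung. Without a filter on low counts, edgeR gave an adjusted p of 0.558, and without KO3, where Glycam1 entered the test, an adjusted p of 0.0054, with a range over these 2 alternatives of 0.0054 to 0.558. Madcam1, another adhesion molecule of such venules, had 0, 3 and 8 counts in KO3, KO4 and KO5 and no count in any wild type library.

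Bcl6 (chromosome 16, 23965052 to 23988852, minus strand) had 47.9, 52.9 and 45.7 CPM in KO3, KO4 and KO5, against 51.2, 47.1, 51.8 and 47.2 CPM in WT2, WT3, WT4 and WT6. The knockout range enclosed the wild type range, with means of 48.8 ± 3.70 CPM in knockout (SD, n = 3) and 49.3 ± 2.55 CPM in wild type lung (SD, n = 4). Its log2 fold change was -0.01 ± 0.10 (SE), with changes of sign in 5 of 15 alternatives. Bcl6 is also transcribed outside germinal centres, and whole-lung RNA does not separate these sources.

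Over the 7 members tested the median log2 fold change was 0.53, and 5 values were positive, against a median of -0.01 and 48.0% positive values over all genes. Without both WT6 and KO5 the median was 0.46. With any 1 library left out it lay between 0.29 (without KO5) and 1.04 (without KO3, when Glycam1 was also tested). The members were chosen with earlier results of these data known, so that the median and the positive values are a description only. Several members also rose and fell together over the libraries and are not separate observations. Pearson's r of log2 CPM was 0.90 for Ccl19 and Ltb, but -0.09 for Cxcl13 and Ccl21a.

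**Figure D2:**
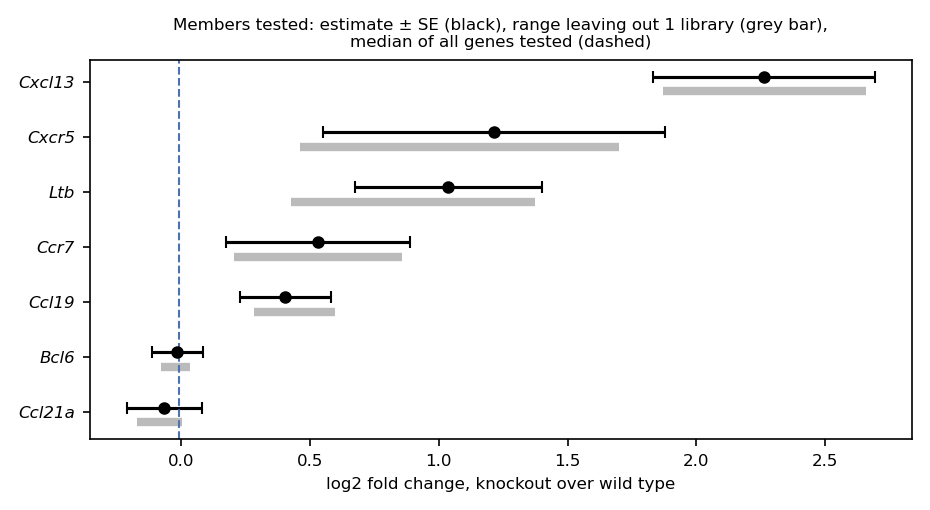
Log2 fold change (horizontal axis, knockout over wild type) of the 7 members tested, with black points and bars for the edgeR estimate ± SE, grey bars for the range when each library is left out in turn, and a blue dashed line for the median of all genes tested. With 1 library left out Cxcl13 stays between 1.87 and 2.66, Cxcr5 and Ltb reach down to 0.46 and 0.42, and the ranges of Bcl6 and Ccl21a include 0.

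Levels were set between genes per kilobase of exon (union of annotated exons). In wild type lung the order of mean CPM per kilobase was Ccl21a (33.0 ± 5.84), Ccl19 (12.5 ± 0.73), Bcl6 (7.36 ± 0.38), Ccr7 (2.30 ± 1.10), Cxcl13 (2.25 ± 0.58), Ltb (1.84 ± 0.23), Cxcr5 (0.56 ± 0.40), Lta (0.093 ± 0.12) and Glycam1 (0.016 ± 0.033; SD, n = 4 throughout). The wild type ranges of Ccr7, Cxcl13 and Ltb overlapped, as did those of Cxcr5 and Lta and of Lta and Glycam1, and the other neighbours in this order did not. In knockout lung Cxcl13, at 10.8 ± 6.26 CPM per kilobase (SD, n = 3), came after Ccl21a (31.5 ± 2.16) and Ccl19 (16.6 ± 4.20) and before Bcl6 (7.29 ± 0.55). Its range there, 3.88 to 16.1, overlapped those of Ccl19 and Bcl6. Per kilobase, the T zone chemokines were thus above the B follicle chemokine in the means of both genotypes.

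Lymphocyte marker sums were, like most members, highest in KO5, and their part in the results was not tested. Of 13 B cell genes, all were tested, none was called, and all had positive values, at a median log2 fold change of 1.42. Their summed level was 55.7, 131 and 287 CPM in KO3, KO4 and KO5, against 32.8 to 81.2 CPM in wild type libraries, and KO3 lay within that range. Examples were Cd22, an inhibitory receptor (23.1 ± 14.5 CPM in knockout and 8.60 ± 2.37 CPM in wild type lung; SD, n = 3 and 4), Cd72, another inhibitory receptor (6.96 ± 3.94 CPM in knockout and 3.17 ± 0.28 CPM in wild type), and the transcription factor Spib (13.2 ± 11.6 CPM in knockout and 2.73 ± 0.48 CPM in wild type). Of 14 T cell genes, 13 had positive values at a median of 0.85 and none was called. Their sum was 65.7, 79.7 and 116 CPM in knockout libraries, against 44.2 to 68.2 CPM in wild type libraries. The helper co-receptor Cd4 (9.13 ± 3.26 CPM in knockout and 3.82 ± 0.43 CPM in wild type), Cd6 (4.73 ± 2.37 CPM in knockout and 1.76 ± 0.19 CPM in wild type) and the co-stimulatory receptor Cd28 (5.54 ± 2.69 CPM in knockout and 2.92 ± 0.62 CPM in wild type) had the smallest p of this list.

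Set against these sums, the receptors and Ltb did not stand apart. Cxcr5 was 2.43% to 2.88% of the B cell sum in knockout and 1.38% to 4.33% in wild type libraries. Ccr7 was 7.11% to 8.04% of the T cell sum in knockout and 5.19% to 10.8% in wild type libraries, and Ltb was 2.23% to 2.44% of the B and T cell sums together in knockout, against 2.02% to 3.46% in wild type libraries. The wild type ranges enclosed the knockout ranges for all 3 genes. Cxcl13, a stromal product, was 8.01%, 11.02% and 6.44% of the B cell sum in KO3, KO4 and KO5, against 3.14% to 5.87% in wild type libraries, and no knockout library overlapped the wild type libraries on this scale. This percentage is a description, and no test was made of it.

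**Figure D3:**
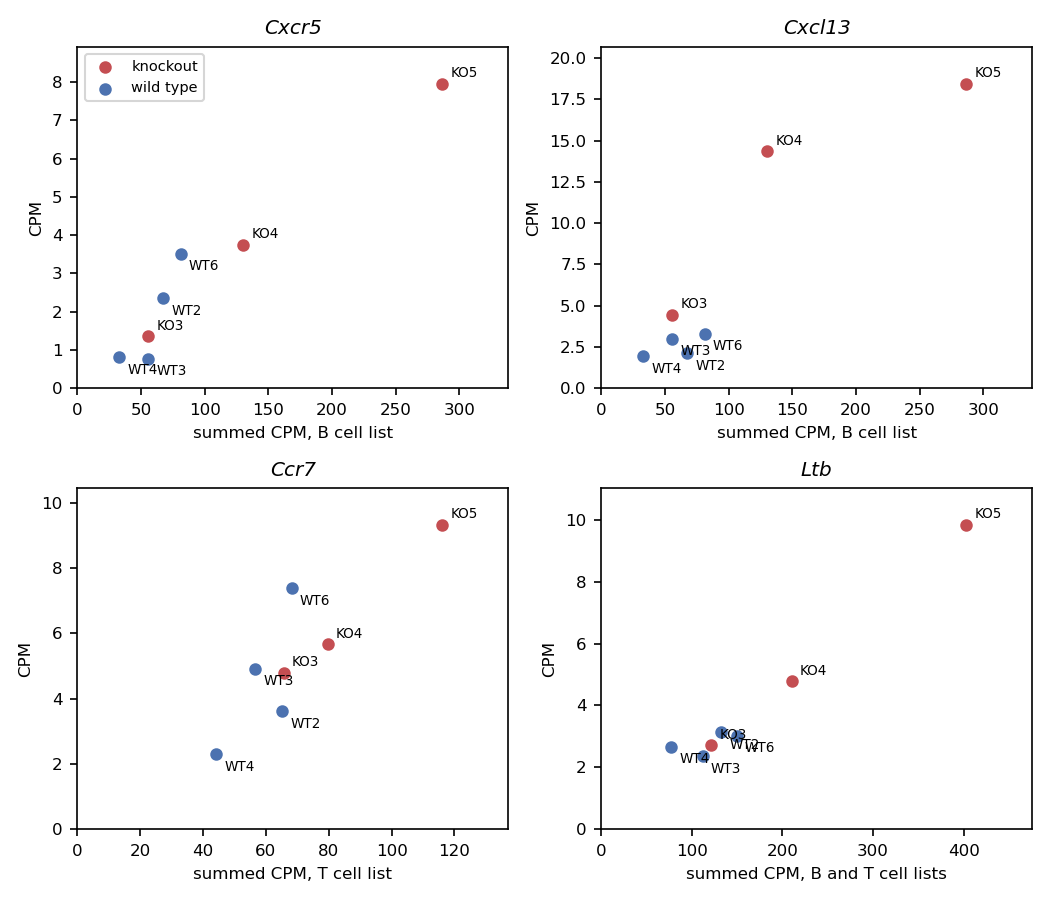
Level in CPM (vertical axes) of Cxcr5, Cxcl13, Ccr7 and Ltb in each library against the summed CPM of B cell markers, T cell markers or both (horizontal axes), with knockout libraries in red and wild type libraries in blue. KO5 is highest on both axes in every panel, and KO3 lies among the wild type libraries except for Cxcl13.

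Genes of germinal centres and follicular helper T cells gave 12 tested genes with none called, 9 positive values and a median of 0.87. Icos, the co-stimulator of follicular helper T cells, had 3.71 ± 1.53 CPM in knockout and 1.26 ± 0.38 CPM in wild type lung (SD, n = 3 and 4; log2 fold change 1.54 ± 0.34 SE, edgeR adjusted p = 0.526). The inhibitory receptor Pdcd1 had 1.51 ± 0.80 CPM in knockout and 0.54 ± 0.34 CPM in wild type, and Mybl1, a transcription factor of germinal centre B cells, 6.00 ± 2.21 CPM in knockout and 3.49 ± 0.67 CPM in wild type. S1pr2, a receptor that holds B cells in germinal centres, had values in the other direction, with 32.4 to 33.2 CPM in knockout libraries, all below the 35.9 to 40.1 CPM in wild type libraries (log2 fold change -0.21 ± 0.10 SE, edgeR adjusted p = 0.9998). A further 5 genes were under the filter, and 4 of them are given here, chosen after their values were seen. Rgs13, a regulator in germinal centre B cells, had 0, 7 and 11 counts in KO3, KO4 and KO5 and none in wild type libraries. The follicular helper cytokine Il21 had 2, 4 and 11 counts in knockout libraries and 0, 0, 1 and 0 counts in wild type libraries. Cd40lg, the T cell ligand of CD40, had 4, 5 and 11 counts in knockout libraries, against 7, 5, 2 and 4 counts in WT2, WT3, WT4 and WT6, and overlapped. Sh2d1a, an adaptor of helper T cells, had 4, 4 and 14 counts in knockout libraries, against 3, 2, 1 and 4 counts in wild type libraries, and overlapped too. For Rgs13, KO4 and KO5 stood apart and KO3, like the wild type libraries, had no count.

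The plasma cell list had 8 tested genes, none called, 7 positive and a median of 1.495. The kappa light chain Igkc had 380 ± 224 CPM in knockout and 37.2 ± 7.18 CPM in wild type lung, the IgA heavy chain Igha 436 ± 405 CPM in knockout and 40.5 ± 2.23 CPM in wild type, and Jchain, which joins IgA and IgM units, 138 ± 154 CPM in knockout and 8.73 ± 2.69 CPM in wild type (SD, n = 3 and 4). Of the other tested genes of this list, Mzb1 and Derl3 had log2 fold changes of 2.09 and 0.90. Prdm1, Xbp1 and Sdc1 had 0.06, 0.02 and -0.04, so that the list did not move as a whole. Xbp1 and Sdc1 were abundant in both genotypes, at means of 158 and 182 CPM in knockout and 156 and 187 CPM in wild type lung. In whole lung, such abundant genes cannot show whether a small number of plasma cells changed. The sum of this list was 629, 1161 and 2176 CPM in KO3, KO4 and KO5, against 425 to 471 CPM in wild type libraries.

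Of the list of lymphotoxin receptor and NF-kB genes, which also holds ligands, all 16 were tested, none was called and 10 were positive. The log2 fold changes ran from -0.58 (Tnfsf14) to 0.47 (Tnf), at a median of 0.08. Its genes with the smallest p were Tnf, given above, Tnfsf14, another ligand of the lymphotoxin beta receptor (0.46 ± 0.12 CPM in knockout and 0.68 ± 0.17 CPM in wild type lung), and Nfkb2 of the non-canonical pathway (43.9 ± 4.45 CPM in knockout and 39.0 ± 8.34 CPM in wild type; SD, n = 3 and 4). The receptor Ltbr itself had 70.9 CPM in knockout and 77.7 CPM in wild type lung on average. Among 9 tested genes of lymphoid tissue inducer cells none was called, 8 were positive and the median was 0.33. The interleukin receptor Il7r had 21.1 ± 2.83 CPM in knockout and 15.6 ± 2.70 CPM in wild type, and Tox 3.55 ± 0.32 CPM in knockout and 2.76 ± 0.85 CPM in wild type.

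Lists of the stromal and vascular cells of lymphoid tissue also had medians near 0, with no gene called. Several of their genes were abundant in both genotypes, such as Podxl (512 CPM in knockout and 527 CPM in wild type lung) and Lyve1 (512 CPM in knockout and 489 CPM in wild type). In whole lung, such lists cannot show whether a small number of venule or stromal cells changed. The median was 0.04 over 15 tested genes of high endothelial venules and adhesion, where Selp had 1.92 ± 0.67 CPM in knockout and 2.56 ± 0.23 CPM in wild type lung and Gcnt1 12.7 ± 6.06 CPM in knockout and 10.2 ± 1.501 CPM in wild type (SD, n = 3 and 4). Chst4, a sulfotransferase of such venules, averaged 3.42 CPM in knockout and 3.53 CPM in wild type lung. The median was 0.07 over 10 genes of follicular dendritic and reticular stroma. Its genes with the smallest p were Fcer2a (8.81 ± 5.76 CPM in knockout and 3.61 ± 1.03 CPM in wild type) and Cr2 (17.7 ± 14.2 CPM in knockout and 6.77 ± 1.64 CPM in wild type), receptors that B cells also carry, and Ch25h (1.88 ± 0.49 CPM in knockout and 2.45 ± 0.59 CPM in wild type). Lymphatic endothelium, a source of CCL21, had a median of -0.10 over 8 genes, with Itga9 at 208 ± 9.86 CPM in knockout and 240.3 ± 21.7 CPM in wild type, Nrp2 at 94.2 ± 9.40 CPM in knockout and 109.8 ± 18.4 CPM in wild type and Flt4 at 73.3 ± 4.12 CPM in knockout and 83.2 ± 16.9 CPM in wild type.

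Other homing chemokines and receptors had 20 tested genes, none called, 13 positive and a median of 0.17. The dendritic cell and lymphocyte chemokine Ccl20 had 0.81, 1.85 and 4.13 CPM in KO3, KO4 and KO5, against 0.19 to 0.24 CPM in wild type libraries (log2 fold change 3.33 ± 0.56 SE, edgeR adjusted p = 0.151). Its receptor Ccr6 had 0.68, 3.31 and 8.40 CPM in knockout libraries, against 0.22 to 1.34 CPM in wild type libraries. Every knockout library exceeded every wild type library for Ccl20, and KO3 lay among the wild type libraries for Ccr6. Ccl20 was close to the limit of detection in wild type lung, with 4, 3, 3 and 3 counts in WT2, WT3, WT4 and WT6. The knockout libraries had 12, 29 and 57 counts. Ccr4, a receptor of helper T cells, had 1.01 ± 0.34 CPM in knockout and 0.43 ± 0.08 CPM in wild type lung (SD, n = 3 and 4). The dendritic cell list had 9 tested genes, none called, 4 positive and a median of -0.01, with Flt3 at 10.8 ± 1.63 CPM in knockout and 8.31 ± 0.14 CPM in wild type, Cd83 at 13.5 ± 7.06 CPM in knockout and 8.54 ± 0.91 CPM in wild type, and Apol7c at 0.70 ± 0.08 CPM in knockout and 1.03 ± 0.20 CPM in wild type.

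**Figure D4:**
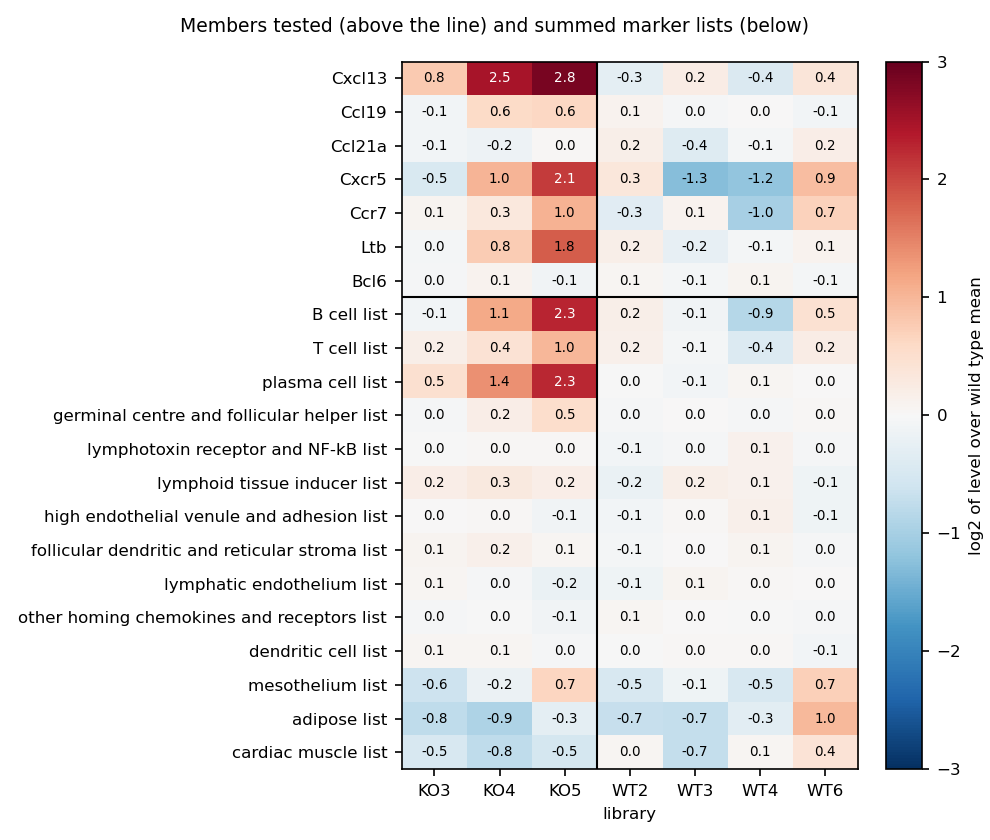
Log2 of the level in each library over the wild type mean, for the 7 members tested (above the line) and for the summed CPM of 14 of the 15 marker lists (below; the thymus list is not drawn), with knockout libraries left of wild type libraries and red for higher, blue for lower. Cxcl13, Cxcr5, Ltb and the B cell, T cell and plasma cell lists are highest in KO5, while the NF-kB, venule, stromal and dendritic cell lists stay near 0 in all libraries. Genes abundant in whole lung carry the sums of the venule and stromal lists, which cannot show a change in few cells.

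Markers of thymus, mesothelium, adipose tissue and cardiac muscle, which can be dissected with lung, were also summed. Their part in the results was not tested. No list was made for lymph node, so that its presence in the libraries was not examined. None of 4 measured thymus genes passed the filter, and their summed level was 0.20 to 0.51 CPM in knockout and 0.24 to 0.57 CPM in wild type libraries, with Foxn1 at 0 in every library. The mesothelial list had a median of -0.05 over 9 genes, with Msln at 41.4 ± 36.2 CPM in knockout and 25.7 ± 19.95 CPM in wild type lung, Cldn15 at 4.40 ± 2.62 CPM in knockout and 3.32 ± 2.11 CPM in wild type and Lrrn4 at 5.33 ± 3.76 CPM in knockout and 7.499 ± 5.94 CPM in wild type (SD, n = 3 and 4). The adipose list had a median of -1.07 over 7 genes, with Plin1 at 1.73 ± 1.53 CPM in knockout and 5.10 ± 6.02 CPM in wild type, Fabp4 at 13.3 ± 4.25 CPM in knockout and 23.0 ± 19.1 CPM in wild type and Lipe at 38.1 ± 2.47 CPM in knockout and 45.7 ± 6.503 CPM in wild type. The cardiac muscle list had a median of -0.68 over 8 genes, with Myh6 at 219.8 ± 24.0 CPM in knockout and 349.8 ± 116.6 CPM in wild type, Myl4 at 20.7 ± 5.20 CPM in knockout and 37.3 ± 14.8 CPM in wild type and Tnni3 at 19.9 ± 6.15 CPM in knockout and 31.99 ± 8.31 CPM in wild type. The adipose sum was 67.4 to 104.6 CPM in knockout and 77.9 to 250.9 CPM in wild type libraries, and the cardiac sum 420.7 to 508 CPM in knockout and 434 to 944 CPM in wild type libraries. No gene of these lists was called.

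The genes most like each member tested were taken by Pearson's r of log2 CPM over the 7 libraries, among 14177 genes, as a description of shared library order. Cxcl13 was closest to Dnajb7 (0.997), Dclk1 (0.983) and the immunoglobulin heavy chain Ighg2c (0.981), and Ccl19 to the light chain segment Igkv5-43 (0.981), Pml (0.979) and Ung (0.977). Ighg2c had 7.77, 95.8 and 170.1 CPM in KO3, KO4 and KO5, against 0.30 to 2.81 CPM in wild type libraries. Among the genes closest to Ccr7 were the lymphocyte receptor Ly9 (0.994) and AI504432 (0.982). Ltb was closest to Dennd1c (0.984), Fcho1 (0.981) and Spib (0.979), and Cxcr5 to Cacna1h (0.990), Dok3 (0.979) and Cbl (0.978). Ccl21a was closest to Anks1 (0.995), Notch1 (0.995) and Slc27a3 (0.993), and Bcl6 to Elmsan1 (0.991), Bag3 (0.985) and Rpl15-ps2 (0.983). No test was made of these correlations.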

How the data were processed

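Deposited values were whole-number read counts per gene symbol, not normalized by the authors. STAR, DESeq2 and mm10 are listed in the submitters' processing notes, without versions or roles. How reads were counted, with which annotation and whether by strand, was not given in the sources used here. Positions and exon lengths came from GENCODE M21 (GRCm38, the assembly called mm10), matched by symbol. Of 28828 entries, 562 had no count.

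All genes were fitted with edgeR 4.0.16 (R 4.3.3): its filter on low counts by genotype (19832 genes), TMM scaling, and quasi-likelihood tests (robust, two-sided) of a model holding genotype alone, with p-values adjusted over all genes tested (Benjamini-Hochberg, threshold 0.05). The SE was the log2 fold change divided by the square root of the test's F. Library sizes for CPM were TMM-scaled, and log2 CPM, used for likeness, had a prior count of 2. The procedure was tested on simulated counts. No library pair agreed within sampling noise (smallest chi-square 4.30 per degree of freedom).

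Members, marker lists and the alternative without WT6 and KO5 were chosen with earlier results of these data known. The text names all members, the 3 genes of each list with the smallest p, and the 3 genes most like each member (mean of at least 1 CPM, predicted genes left out). Some genes under this rule are not reported here. Other genes (Madcam1, Chst4, Ltbr, S1pr2, Rgs13, Il21, Cd40lg, Sh2d1a, Foxn1, Mzb1, Derl3, Prdm1, Xbp1, Sdc1, Podxl, Lyve1) were chosen after their values were seen, and Sftpc and Ager as a check of the tissue. Alternatives were RLE or no scaling, other filters, DESeq2 1.42.0, a replicate block, leaving out libraries, and a term for WT6 and KO5. Leaving out libraries from the ratios of summed counts was added after seeing the data.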

Additional observations from a re-analysis of the deposited data

Results flagged for a closer look

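A wild type library stood far from the other 3, by Dixon's criterion at the 95% level, in 7 of 66 sets of 4 wild type values examined. Chance flags about 1 in 20. Of the members this concerned Glycam1 alone, with 0.14 CPM in WT6 (2 counts) and no count in the other wild type libraries. With the other libraries tied at 0, any count at all meets this criterion, and 2 counts is under the 3 counts that a count of 0 allows, so that WT6 is not shown to differ.

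WT6 was also the high library for Msln (55.3 CPM against 12.3 to 19.4 CPM), Plin1 (14.1 CPM against 1.40 to 3.07 CPM), Fabp4 (51.3 CPM against 10.7 to 17.6 CPM) and the adipose sum (250.9 CPM against 77.9 to 103 CPM). WT3 was high for Cd6 (2.04 CPM against 1.63 to 1.69 CPM) and low for Tnni3 (19.5 CPM against 35.9 to 36.6 CPM). Groups of 3 knockout libraries cannot be examined in this way.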

How the results depend on the processing

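Cxcl13, Ccl19, Cxcr5, Ccr7 and Ltb kept a positive log2 fold change in all 15 alternatives, and Ccl21a and Bcl6 changed sign in 3 and 5 of them, at -0.17 to 0.11 and -0.08 to 0.04. The number of members called was 0 in edgeR with every scaling and filter tried, 1 in DESeq2 and 0 to 2 with 1 library left out, the 2 being Cxcl13 and Glycam1 without KO3. The median over the members was 1.03 without a filter, where Lta and Glycam1 entered, and 0.29 to 1.04 with 1 library left out. With 1 library left out, an alternative added after seeing the data, the ratio of summed counts was 2.46 to 10.5 for Lta. For Glycam1 it was 29.9 (from 3 assumed wild type counts) to 85.3. Over all genes the 7 calls became 47 in DESeq2, 14 without both WT6 and KO5, 29 with a term for this pair, and 3 to 41 with 1 library left out (3 without WT2, WT3 or WT4, 41 without KO3). The cause was not tested. Numbers 3 and 4 occur in both genotypes, and the labels do not say that they pair libraries. Deviations of libraries that share a number correlated at 0.24 and 0.20. With the number as a replicate block, in the 4 libraries concerned and with 1 residual degree of freedom, 74 genes and 0 members were called. Low counts limit Lta, Glycam1, Cxcr5 and Ltb most. The wild type level of Cxcl13 rests on counts as low as those of Ltb (35, 47, 26 and 47 in WT2, WT3, WT4 and WT6). Without KO5 the log2 fold changes of Cxcr5, Ccr7 and Ltb were 0.46, 0.21 and 0.42.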
